A study of Mus musculus with 1479 samples.

Results

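Secreted Wnt antagonists are proteins that cells release to hold back Wnt signalling. This report covers 8 of them in single cells of the mouse urinary bladder: the Dickkopf genes Dkk1, Dkk2 and Dkk3, the secreted frizzled-related genes Sfrp1, Sfrp2, Sfrp4 and Frzb, and Wif1. They were chosen by gene name, with earlier results of these data known, and all 8 were found among 46517 gene rows counted in 1479 cells. Bladder cells were dissociated from adult male mice of 10 to 20 weeks. Cells positive for a mesenchymal reporter, or for PDGFRα or PDGFRβ antibody, and negative for CD31 were sorted into single wells. They were made into Smart-seq2 libraries, which cover whole transcripts and carry no molecular identifiers. The mice were backcrossed to C57Bl6/J and fell into 5 lines. PdgfrbGFP (54.8% of the cells) and Acta2GFP (8.72%) carry transgenes in which the Pdgfrb or Acta2 promoter drives GFP, Cspg4dsRED (13.7%) carries a transgene in which the Cspg4 promoter drives dsRED, PdgfraGFP (9.94%) has a nuclear GFP knocked into Pdgfra, and C57BL6 (12.8%) has no reporter. Combined reporter strains were also used, the labels name no animals, and Acta2GFP tissue received elastase in addition. The authors had sorted the cells into clusters 1 to 11 by these same expression values. Tests between clusters therefore show whether a difference recurs from line to line, and they are not independent evidence.

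A level below is a gene's reads per 500000 endogenous reads. It was computed in each cell, then as a mean for each line with at least 3 cells, and is given as the mean ± SD of these n line means. The line is the unit of every test, so p-values measure only the spread between lines. Depth ran from 50276 to 1446059 reads per cell, with line medians from 120376 to 293659. Shares of cells were therefore taken, except where full depth is stated, after thinning each cell to 50000 reads, which 1473 cells allowed, with exact Clopper-Pearson 95% intervals that cover counting error only. The labels of the clusters were checked against markers. The summed level of 9 mural genes was 10600 in cluster 10, called mural here by these genes, 578 in cluster 5 and 61.8 to 248.1 in the other clusters, while 9 fibroblast genes summed to 1324 in cluster 10 and 9196 to 20780 elsewhere. Cluster 5 had a summed level of 2762 for 8 genes of sub-epithelial fibroblasts, against at most 253.9 elsewhere, and the sources used here give no cluster number for such cells. Cluster 4 held glial genes at a summed level of 76.9 beside its fibroblast genes.

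Wnt ligands signal through Frizzled receptors and the co-receptors Lrp5 and Lrp6, and the best known outcome is that beta-catenin is stabilised and acts with TCF/LEF factors on target genes. Dkk1 and Dkk2 bind the co-receptors, with Kremen proteins as partners, whereas the Sfrp proteins, Frzb and Wif1 bind Wnt ligands themselves. Dkk3 is a divergent Dickkopf protein whose part in Wnt signalling is less clear. In mucosal organs, connective tissue cells near the epithelium are a known source of both Wnt ligands and their secreted inhibitors.

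All 8 genes are protein coding and their coordinates are on GRCm38 with GENCODE M21. Dkk2 lies at chr3:132085292-132180304 and Sfrp2 at chr3:83766321-83774316, both on the plus strand of chromosome 3. Dkk3 lies at chr7:112116017-112159057 on the minus strand, Sfrp1 at chr8:23411502-23449632 on the plus strand, Sfrp4 at chr13:19623104-19632994 on the plus strand and Frzb at chr2:80411970-80447625 on the minus strand. Dkk1 lies at chr19:30545863-30549665 on the minus strand and Wif1 at chr10:121033960-121100650 on the plus strand. Of these genes, only Sfrp2 shared exon bases with another annotated gene, 347 bases with the antisense gene Gm26771. No strand setting is given for the counting, so reads of that pair cannot be told apart, and the values of Sfrp2 carry this uncertainty.

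Dkk2 and Sfrp2 were the members that rose in cluster 5 in the comparison described below, and the 250 bases before the start of each gene are shown because both genes have their highest mean level in that cluster. The sequences are those of RefSeq for GRCm38.p6, plus strand, 5′ to 3′, at chr3:132085042-132085291 for Dkk2 and chr3:83766071-83766320 for Sfrp2.
Dkk2: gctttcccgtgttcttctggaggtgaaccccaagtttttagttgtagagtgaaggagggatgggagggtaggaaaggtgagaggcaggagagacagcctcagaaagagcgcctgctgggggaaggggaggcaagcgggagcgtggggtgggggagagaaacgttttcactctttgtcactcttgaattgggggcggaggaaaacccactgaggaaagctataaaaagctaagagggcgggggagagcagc
Sfrp2: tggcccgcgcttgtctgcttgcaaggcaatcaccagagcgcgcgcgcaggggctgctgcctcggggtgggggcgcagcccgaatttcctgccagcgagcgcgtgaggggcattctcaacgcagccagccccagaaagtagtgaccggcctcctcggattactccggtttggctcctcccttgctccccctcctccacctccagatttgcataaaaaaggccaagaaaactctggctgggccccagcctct
Capitals would mark the TCF/LEF core CTTTGA or its reverse complement TCAAAG. Neither window holds a match, which says only that these letters are not in these 250 bases. Of all 32851 promoter windows of the same length, 13.8% held at least 1 match. GC content was 55.6% in the Dkk2 window and 63.6% in the Sfrp2 window, against 53.2% over all windows. RefSeq windows were found for 5 of the 8 members, and those of Dkk1, Frzb and Wif1 overlap transcribed bases of the GENCODE models and are not shown.

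The members differed widely in abundance. At full depth Dkk3 had 306847 reads in 92.8% of all cells, Sfrp1 had 70929 reads in 68.8% and Sfrp2 had 42248 reads in 49.3%. Frzb had 27917 reads in 42.9% of cells, Sfrp4 had 22878 reads in 32.2% and Dkk2 had 15731 reads in 22.9%. Dkk1 and Wif1 were close to the limit of detection. Dkk1 had 38 reads in 26 cells, never more than 7 in a cell, and Wif1 was read in 11 cells, with most of its reads in 1 cell of cluster 5. After thinning, each of these 2 genes was read in 5 of 1473 cells, 0.339% (interval 0.11% to 0.79%).

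**Figure D1:**
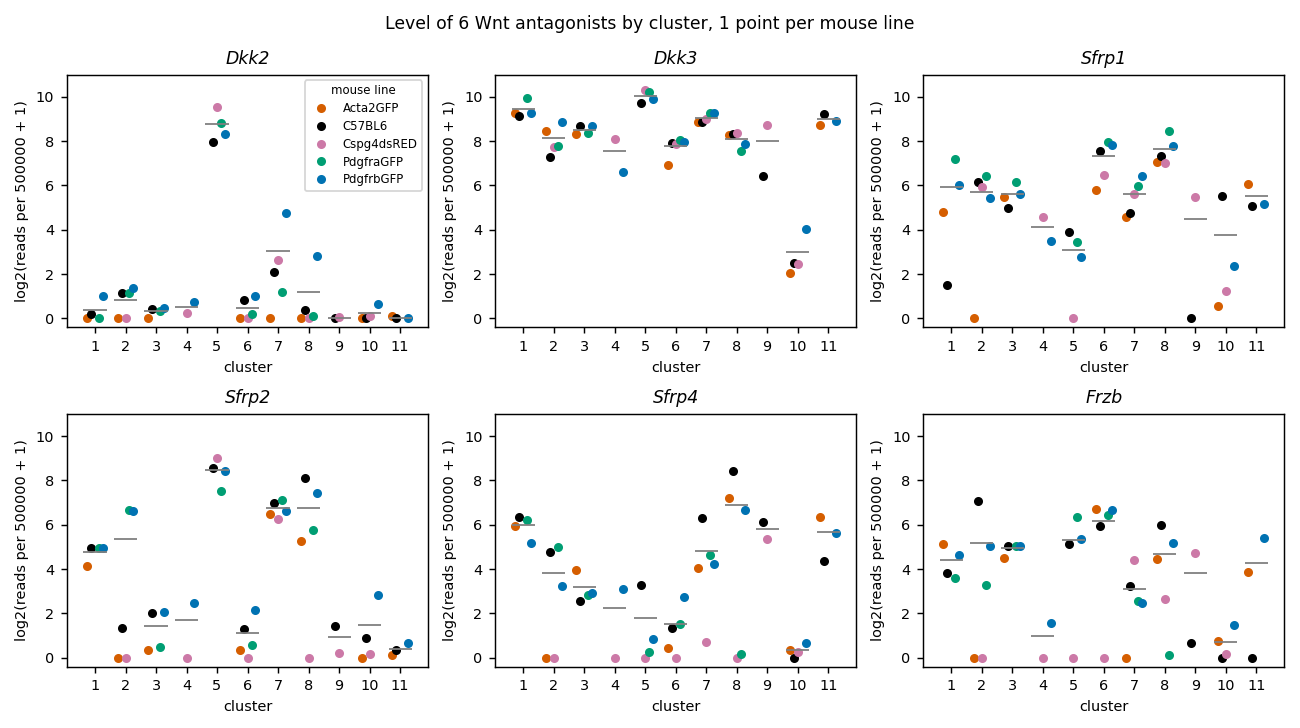
Level of 6 members in each cluster, as log2(reads per 500000 reads + 1), with 1 point per mouse line with at least 3 cells and a bar at the log2 of the mean level. Dkk2 stands near 8 to 9.5 in cluster 5 and near 0 in most other clusters, Dkk3 is high in every cluster but 10, Sfrp1 and Sfrp4 have their highest mean in cluster 8, Sfrp2 in cluster 5 and Frzb in cluster 6.

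Cluster 10 held few of these transcripts. The question of that comparison is which genes separate mural cells from fibroblasts, and in these data Dkk3, the most abundant member, set them apart in each line. Its level in cluster 10 was 3.16 in Acta2GFP, 4.63 in C57BL6, 4.47 in Cspg4dsRED and 15.3 in PdgfrbGFP cells, whereas in the 10 fibroblast clusters the lowest line value was 84.9. The ranges did not overlap, and the log2 fold change in sums per line was -6.07 (SE 0.65, n = 4 lines, edgeR quasi-likelihood test, adjusted p = 4.81e-06).

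Sfrp4, which binds Wnt ligands, was at 0.27 in Acta2GFP, 0 in C57BL6, 0.18 in Cspg4dsRED and 0.56 in PdgfrbGFP cells of cluster 10. Its log2 fold change against the fibroblast clusters was -7.03 (SE 1.42, adjusted p = 0.00377). Sfrp4 was low outside cluster 10 too. The mean of 0.25 in cluster 10 did not differ beyond the spread from the 1.87 of cluster 6, and clusters 5 and 4 were at 2.45 and 3.72. Sfrp2 was at 0, 0.87, 0.13 and 6.19 in the same order of lines, and fell by 6.16 on the log2 scale (SE 1.43, adjusted p = 0.0109). The value of 6.19 in PdgfrbGFP cells stood above those of the other lines. Low Sfrp2 was not particular to cluster 10, whose mean was 1.80, against 0.32 to 1.72 in clusters 3, 6, 9 and 11. That 1.80 came mainly through PdgfrbGFP, the median over lines being 0.50. Cluster 10 was above cluster 3 in 1 of 3 shared lines. The fibroblast sums hold clusters 5, 7 and 8, where Sfrp2 was highest.

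Frzb fell by 5.75 (SE 1.48, adjusted p = 0.0232), Sfrp1 by 4.59 (SE 1.28, adjusted p = 0.0339) and Dkk2 by 6.51 on the log2 scale (SE 1.96, adjusted p = 0.0456) in edgeR's test. Dkk2 stood at a mean of 0.16 in cluster 10, beside 0.02 in clusters 9 and 11, so its fall too was measured against sums that hold cluster 5. That 0.16 came mainly through PdgfrbGFP at 0.57, the other lines being at 0.09 or less. Sfrp1 was the least even of them, at 44.4 in the 3 C57BL6 cells of cluster 10 and between 0.48 and 4.13 in the other lines. Dkk1 and Wif1 did not pass the filter on low counts and were not tested. The other 6 members passed it and each was called lower, at an adjusted p under 0.05 and a log2 fold change of at least 2. Over all 13861 genes tested, 840 were called lower, 6.06%, and 8.34% were called in either direction. The log2 fold change had a median of -0.81 over those genes and of -6.12 over the 6 members. A gene read only in fibroblasts passes the filter through them, so the count and median of the 6 are descriptions and not support. The number of members called was 2 without Cspg4dsRED (Dkk3 and Sfrp4), 3 without Acta2GFP, 3 without PdgfrbGFP and 3 with the median gene set to 0. Dkk3 and Sfrp4 were called in every alternative run. Dkk2 lost its call in 8 of them, of which the one without C57BL6 and the one with at least 10 cells are the same fit, with adjusted p up to 0.292.

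Single reads of Dkk3 and Sfrp1 still occurred in mural cells. The cluster held 65 Cspg4dsRED, 45 PdgfrbGFP, 12 Acta2GFP and 3 C57BL6 cells. After thinning, Dkk3 was read in 36.8% of the cells of cluster 10 (interval 28.4% to 45.9%) against 92.5% of 1348 fibroblast-cluster cells, but with at least 10 reads in only 0.8% against 75.2%. Sfrp1 was read in 19.2% of cluster 10 cells and reached 10 reads in 0.8%. In 97.6% of cluster 10 cells no member reached 10 reads, against 1.9% (cluster 1) to 47.6% (cluster 4) in the fibroblast clusters, with 2.63% in cluster 5. The level of fibroblast markers in cluster 10 (summed level 557 to 2224 by line) and the endothelial markers (12.1 to 228.2) lay beside these values, and their part in them was not tested.

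**Figure D2:**
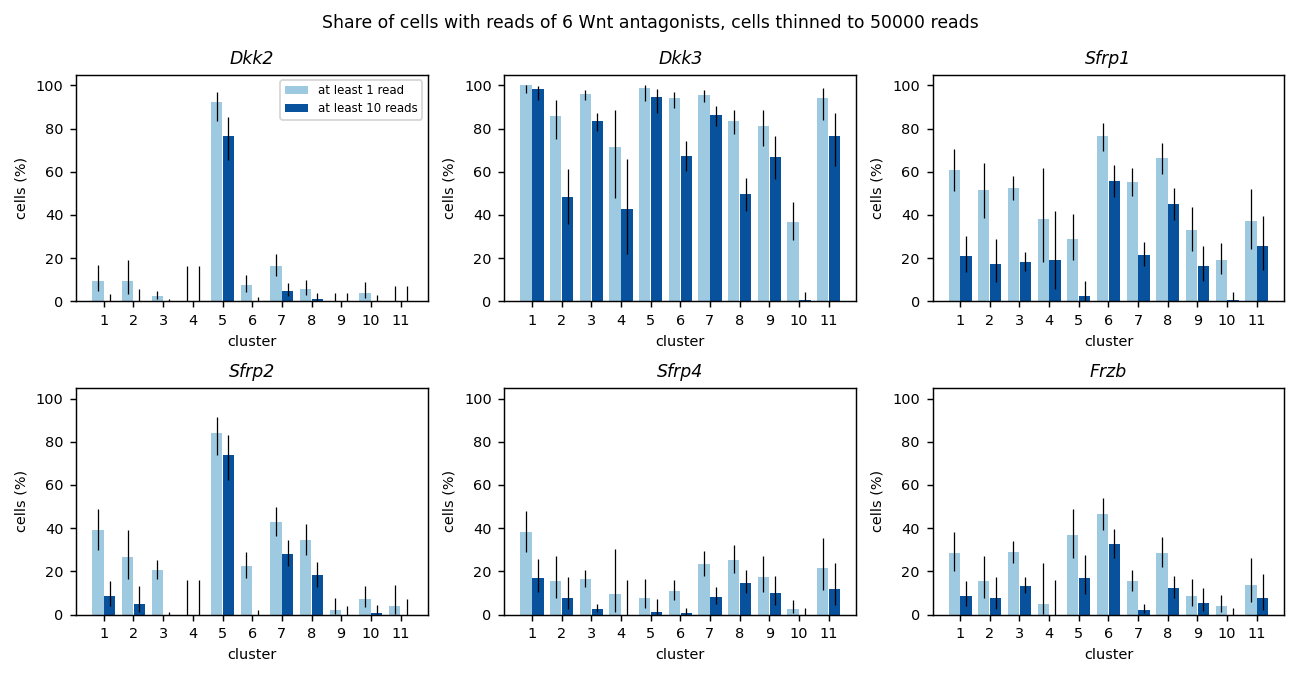
Share of cells, in percent, with at least 1 read (light) and at least 10 reads (dark) of 6 members in each cluster after thinning to 50000 reads, with exact 95% intervals as bars. In cluster 5 the 10-read share of Dkk2 is 76.3% and that of Sfrp1 is 2.63%, and in cluster 10 the 10-read share of each member is at most 0.8%.

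Dkk2 was the member with the sharpest distribution. Its level in cluster 5 was 248.3 in C57BL6, 748 in the 3 cells of Cspg4dsRED, 449 in PdgfraGFP and 318.7 in PdgfrbGFP cells, a mean of 441 ± 220.7 (SD, n = 4 lines). The next cluster was cluster 7 at 7.21 ± 10.8 (n = 5), and the remaining clusters were between 0.02 and 1.29. Every line was higher in cluster 5 than in cluster 7, by 5.98 ± 1.77 (SD, n = 4) on the scale of log2(level + 1).

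Against the other fibroblast clusters, Dkk2 rose by 8.86 on the log2 scale in cluster 5 (SE 0.89, adjusted p = 0.00105, edgeR's quasi-likelihood test), and it was called under every alternative run, with log2 fold changes between 7.23 and 9.73. Of the 76 cells, 92.1% had a read after thinning (interval 83.6% to 97%) and 76.3% had at least 10. In C57BL6, 11 of 15 cells had a Dkk2 read at full depth, and in the other 3 lines every cell of cluster 5 had one. Within lines the cells still ranged widely, from 4.90 to 1154 in PdgfraGFP and from 13.6 to 1558 in PdgfrbGFP. Dkk2 ranked 3 among 13172 genes by the share of variance that lay between fibroblast clusters, 66.7% against 1.44% for the median gene. The cluster labels rest on these values too, so this rank is a description.

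Sfrp2, a Wnt-binding member, was also highest in cluster 5, at 514 in Cspg4dsRED, 378 in C57BL6, 339.95 in PdgfrbGFP and 184.3 in PdgfraGFP cells, a mean of 354 ± 135.7 (SD, n = 4). It rose by 3.23 on the log2 scale against the other fibroblast clusters (SE 0.58, adjusted p = 0.025, edgeR), and was called in every alternative run. Its step from cluster 5 to the next, cluster 8, was 3.06 ± 4.0 (SD, n = 4 lines) on the scale of log2(level + 1), with 4 of 4 lines higher in cluster 5, and did not exceed its spread. Dkk3 was at 1249 in Cspg4dsRED, 1198 in PdgfraGFP, 949 in PdgfrbGFP and 839 in C57BL6 cells of cluster 5. Its change of 1.35 (SE 0.19, adjusted p = 0.00567, edgeR) passed the p threshold and stayed under the fold limit of 2 on the log2 scale. Relative to the median gene it was 2.05, past that limit.

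Sfrp1 and Sfrp4 lay on the other side. Sfrp1 was at 13.8 in C57BL6, 9.84 in PdgfraGFP, 5.84 in PdgfrbGFP and 0 in Cspg4dsRED cells of cluster 5, a mean of 7.36 ± 5.87, while the other fibroblast clusters averaged 16.7 or more. It did not differ beyond the spread from cluster 10, whose mean of 12.6 ± 21.3 came through 3 C57BL6 cells. Its log2 fold change was -4.09 (SE 0.92, adjusted p = 0.0789, edgeR) and did not pass, although it was called in 9 alternatives, including without Cspg4dsRED and with sums of at least 10 cells, which are the same fit here. Sfrp4 was at 8.81 in C57BL6, 0.82 in PdgfrbGFP, 0.18 in PdgfraGFP and 0 in Cspg4dsRED cells, with a log2 fold change of -5.08 (SE 1.36, adjusted p = 0.141) that was past the threshold in 4 alternatives. Low Sfrp4 was not particular to cluster 5, whose mean of 2.45 did not differ beyond the spread from the 1.87 of cluster 6.

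Frzb gave no direction in cluster 5. Its level was 80.7 in PdgfraGFP, 39.4 in PdgfrbGFP, 34.2 in C57BL6 and 0 in Cspg4dsRED cells, and its log2 fold change of -0.39 (SE 1.17, adjusted p = 0.952) changed sign in 5 alternatives, of which the one without Cspg4dsRED and the one with sums of at least 10 cells are the same fit. Dkk1 and Wif1 did not pass the filter here either. In all, 2 of the 8 members were called in cluster 5, both higher, with 6 tested. Of all 13988 genes tested, 0.343% were called higher and 0.879% in either direction, and the median of their log2 fold changes was -0.69. A gene read mainly in cluster 5 can pass the filter through it, so the count of members called is a description and not support. The members called numbered 4 with DESeq2, with limma, with sums per plate and line and with thinned cells, Sfrp1 and Sfrp4 being added as lower.

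Per kilobase of exon, which allows genes to be compared, the cells of cluster 5 carried Dkk3 at 315.2 ± 58.5, Sfrp2 at 164.4 ± 63.01 and Dkk2 at 119.02 ± 59.6 reads per 500000. Frzb followed at 11.9 ± 10.2, Sfrp1 at 1.68 ± 1.34 and Sfrp4 at 0.59 ± 1.02. A cell of cluster 5 had at least 10 reads of 2.67 members on average, against at most 1.56 in any other cluster. Mural markers stood at a summed level of 435 to 753 by line in cluster 5, above every other fibroblast cluster on average. Of the 9 genes, 4 had a mean level above 1 there, against 9 in cluster 10 and 4 to 7 in the other fibroblast clusters. The part of mural markers in the levels of the members was not tested.

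**Figure D3:**
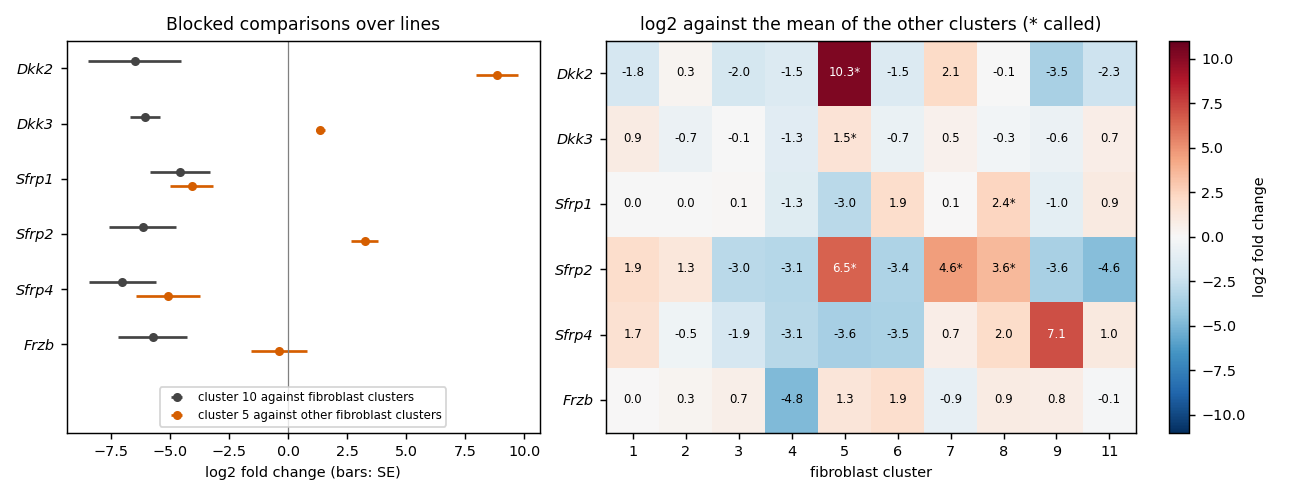
Left, log2 fold changes with SE of 6 members in cluster 10 against the fibroblast clusters and in cluster 5 against the other fibroblast clusters, blocked by line. Right, log2 differences of each fibroblast cluster from the mean of the others in the joint fit, with calls starred. All 6 members lie below 0 in cluster 10, while in cluster 5 Dkk2 and Sfrp2 lie to the right and Sfrp1 and Sfrp4 to the left.

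Across the 10 fibroblast clusters together, Dkk2 (F = 29.4, adjusted p = 9.13e-11), Sfrp2 (F = 11.3, adjusted p = 1.05e-05), Dkk3 (F = 6.29, adjusted p = 0.0018) and Sfrp4 (F = 5.06, adjusted p = 0.00759) varied beyond the spread of the sums in the joint edgeR fit. Sfrp1 narrowly missed the threshold (adjusted p = 0.0507) and passed it in 9 alternatives, while its adjusted p rose to 0.296 without PdgfraGFP and 0.488 without PdgfrbGFP. Frzb did not pass (adjusted p = 0.892). Sfrp4 lost its call without Cspg4dsRED (adjusted p = 0.0642), without PdgfrbGFP (0.134), with limma (0.0568) and with sums of at least 10 cells (0.0526), and Dkk3 with sums of at least 10 cells (0.054). Wif1 was called as well (adjusted p = 0.0122), but from its reads in 9 fibroblast-cluster cells, and it lost the call without C57BL6 or PdgfrbGFP. Dkk1 did not pass the filter. Thus 5 of 8 members were called among 7 tested, beside 916 of all 15237 genes, 6.01%. With sums of at least 10 cells only, or without PdgfrbGFP, 3 members were called. Dkk2 and Sfrp2 kept their calls in every alternative.

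In contrasts of each cluster with the mean of the others, at a log2 limit of 1, there were 7 calls of members, 4 of them in cluster 5. No member was called in cluster 1, where 0.00656% of all genes were called, cluster 2 (2.55%), cluster 3 (0.105%), cluster 4 (0.86%), cluster 6 (0.302%), cluster 9 (0.295%) or cluster 11 (0.0591%). In cluster 5 Dkk2 rose by 10.26 (SE 0.70, adjusted p = 1.48e-13), Sfrp2 by 6.46 (SE 0.78, adjusted p = 2.53e-07) and Dkk3 by 1.53 on the log2 scale (SE 0.28, adjusted p = 0.000333, edgeR), and the remaining call was Wif1 on 2 cells. Of all genes, 3.18% were called higher there and 4.11% in either direction. Here too a gene can pass the filter through cluster 5, so the count of calls is a description. The Dkk2 call in this contrast was lost with sums of at least 10 cells, where the log2 difference was 8.95.

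The other 3 calls were in clusters 7 and 8. Sfrp2 rose by 4.57 in cluster 7 (SE 0.70, adjusted p = 0.000209, edgeR), where 1.17% of genes were called higher. In cluster 8, where 1.42% of genes were called higher, Sfrp2 rose by 3.56 (SE 0.70, adjusted p = 0.00351) and Sfrp1 by 2.39 on the log2 scale (SE 0.57, adjusted p = 0.0189). None of the 3 was called when each cluster was fitted alone against the summed cells of the other fibroblast clusters without cluster 5. Adjusted p was then 0.413 for Sfrp2 in cluster 7, 0.838 for Sfrp2 in cluster 8 and 0.0573 for Sfrp1 (edgeR). In that fit large clusters weigh more in the reference, so it asks another question than the contrast with the mean. Both calls in cluster 8 were also lost without PdgfrbGFP, that of Sfrp2 (adjusted p = 0.177) without C57BL6 and that of Sfrp1 (adjusted p = 0.116) without PdgfraGFP.

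Outside cluster 5 the levels of the members took different orders. Dkk3 was at 1059 ± 196.4 (n = 4) in cluster 5 and 695 ± 192.5 (n = 4) in cluster 1, a step larger than its spread over the 3 shared lines, and at 532 ± 75.2 (n = 5) in cluster 7. Further down came cluster 11 at 501 ± 87.6, cluster 3 at 365 ± 45.4 and cluster 4 at 185.5 ± 125.4 reads per 500000, before the drop to 6.89 ± 5.65 in cluster 10. Clusters 2, 8, 9 and 6, between clusters 3 and 4 in this order, were at 277.4 ± 123.9, 274.3 ± 61.6, 253.1 ± 237.9 and 220 ± 56.9. The place of cluster 9 is uncertain, since its 2 lines were at 421.4 in 85 Cspg4dsRED cells and 84.9 in 3 C57BL6 cells. The pairs of neighbours that differed beyond their spread over shared lines were 5 and 1, 1 and 7, 11 and 3, and 4 and 10, while the other 6 pairs did not.

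Sfrp1 was highest in clusters 8 and 6. In cluster 8 its level was 217.2 in PdgfrbGFP, 353 in PdgfraGFP, 157.7 in C57BL6, 131.3 in Acta2GFP and 127.1 in Cspg4dsRED cells, a mean of 197.3 ± 94.4 (n = 5). Cluster 6 followed at 223.9, 248.2, 185.7, 54.5 and 86.6 in the same order of lines, a mean of 159.8 ± 85.2, and these clusters did not differ beyond their spread. All other clusters were at 59.6 or below on average. By share of cells the order of these clusters turned, with a read in 76.5% of cluster 6 cells (interval 69.7% to 82.4%) and 66.5% of cluster 8 cells (interval 59.1% to 73.3%).

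Sfrp2 had a second peak in clusters 8 and 7, at means of 106.9 ± 112.6 and 105.6 ± 26.4 (n = 5 each). The medians over lines were 52.4 and 98.3. Cluster 8 was the higher one in 2 of 5 lines, and the clusters did not differ beyond their spread. The lines were even in cluster 7, at 98.3 in PdgfrbGFP, 140 in PdgfraGFP, 125.7 in C57BL6, 87.9 in Acta2GFP and 76.3 in Cspg4dsRED cells. In cluster 8 they spread from 0 in the 14 Cspg4dsRED cells to 271.3 in C57BL6 cells. In clusters 3, 4, 6, 9 and 11 the level of Sfrp2 was 2.28 or less.

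Sfrp4 was read in at most 38.1% of the thinned cells of any cluster. Its mean level was 118.9 ± 142.8 (n = 5) in cluster 8, with 347 in C57BL6, 148.3 in Acta2GFP, 99.1 in PdgfrbGFP, 0.11 in PdgfraGFP and 0 in Cspg4dsRED cells. Without C57BL6 the mean of cluster 8 was 61.9. That line was also the highest in cluster 1, and the mean of cluster 1 given next includes it. Cluster 1 was more even, at 62.03 ± 19.6 (n = 4), with 59.8 in Acta2GFP, 79.9 in C57BL6, 73.1 in PdgfraGFP and 35.4 in PdgfrbGFP cells, and clusters 9 and 11 were at 54.1 ± 19.6 (n = 2) and 49.7 ± 30.4 (n = 3). Clusters 8 and 1 did not differ beyond their spread, and clusters 1 and 9, and 9 and 11, shared only 1 line and could not be compared. Cluster 1 also had the largest share of cells with an Sfrp4 read, 38.1% (interval 28.8% to 48.1%), against 25.3% in cluster 8 (interval 19.1% to 32.2%). In cluster 9 the contrast with the mean of the others was 7.11 on the log2 scale from 2 lines (adjusted p = 0.0611, edgeR) and did not pass.

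Frzb, the Frizzled-related protein also called Sfrp3, was highest in cluster 6, at 103.9 in Acta2GFP, 60.01 in C57BL6, 0 in the 3 Cspg4dsRED cells, 85.2 in PdgfraGFP and 99.5 in PdgfrbGFP cells, a mean of 69.7 ± 42.6 (n = 5). Cluster 5 came next at 38.6 ± 33.1 (n = 4), with 80.7 in PdgfraGFP cells. It did not differ beyond the spread from cluster 6, nor from cluster 2 at 34.9 ± 56.8. A Frzb read was found in 46.5% of cluster 6 cells (interval 39.2% to 53.9%) and 36.8% of cluster 5 cells (interval 26.1% to 48.7%). No contrast of Frzb between fibroblast clusters passed the test.

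The proportions of the members are given for 3 further clusters and were not tested. Per kilobase of exon, cluster 8 had Dkk3 at 81.7 ± 18.3, Sfrp2 at 49.7 ± 52.3, Sfrp1 at 45.1 ± 21.6 and Sfrp4 at 28.5 ± 34.2 reads per 500000. Cluster 6 had Dkk3 at 65.5 ± 16.95, Sfrp1 at 36.6 ± 19.5 and Frzb at 21.5 ± 13.2, with Sfrp2 at only 0.53 ± 0.65. In cluster 1, Sfrp4 at 14.8 ± 4.70, Sfrp1 at 13.6 ± 14.3 and Sfrp2 at 12.2 ± 3.01 were each less than 0.1 of Dkk3. Across the 11 clusters, Dkk3 was the highest member per kilobase in all but cluster 10, where Sfrp1 at 2.88 ± 4.87 and Dkk3 at 2.05 ± 1.68 had overlapping spreads. That mean of Sfrp1 came through the 3 C57BL6 cells, and by the median over lines Dkk3 at 1.35 stood above Sfrp1 at 0.62 per kilobase in cluster 10 as well.

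Line and plate could be separated only in part. Plate 689s held Cspg4dsRED and PdgfraGFP cells, but at least 3 of each only in cluster 8, 4 and 19 cells. Acta2GFP and PdgfrbGFP cells shared a plate, and there Sfrp1 in cluster 6 was 54.5 in 6 Acta2GFP cells and 250.3 in 9 PdgfrbGFP cells, while in cluster 8 it was 131.3 in 11 and 182.6 in 35 cells. Frzb in cluster 6 was 103.9 and 107.9 in the same cells. Within PdgfrbGFP, Sfrp4 in cluster 8 differed between its 3 plates, at 177.3 in 51 cells, 73.7 in 35 cells and 7.86 in 34 cells, and Sfrp1 in that cluster was 178.3, 182.6 and 311.2. Each line is 1 unit, so a difference between lines was not tested.

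Within cluster 8, Sfrp4 went with Sfrp2 and not with Sfrp1. Across its thinned cells (120 PdgfrbGFP, 19 PdgfraGFP, 18 C57BL6, 14 Cspg4dsRED and 11 Acta2GFP), Sfrp2 and Sfrp4 had a Pearson correlation of 0.553 in log2(reads + 1) (Spearman 0.48), and 32 cells had reads of both. Sfrp1 and Sfrp4 had a correlation of -0.371 (Spearman -0.351), with 21 cells reading both, 100 only Sfrp1 and 25 only Sfrp4. The same signs were seen within PdgfrbGFP (0.504 and -0.439, 120 cells) and within C57BL6 (0.734 and -0.667, 18 cells). The C57BL6 cells were all on plate 443s. Those of PdgfrbGFP came from several plates, between which Sfrp1 and Sfrp4 differed, and plates were not separated in these correlations. In cluster 11 Sfrp1 and Sfrp4 had a correlation of -0.329 over 51 cells, 1 of which read both, and in cluster 1 one of -0.263. In clusters 2, 3, 6, 7 and 9 it lay between -0.0612 and 0.123. Sfrp2 and Sfrp4 had a correlation of -0.144 in cluster 7 and of 0.0341 to 0.2 in clusters 1, 2, 3 and 6. These are descriptions across cells, which share libraries and clusters made from the same values.

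**Figure D4:**
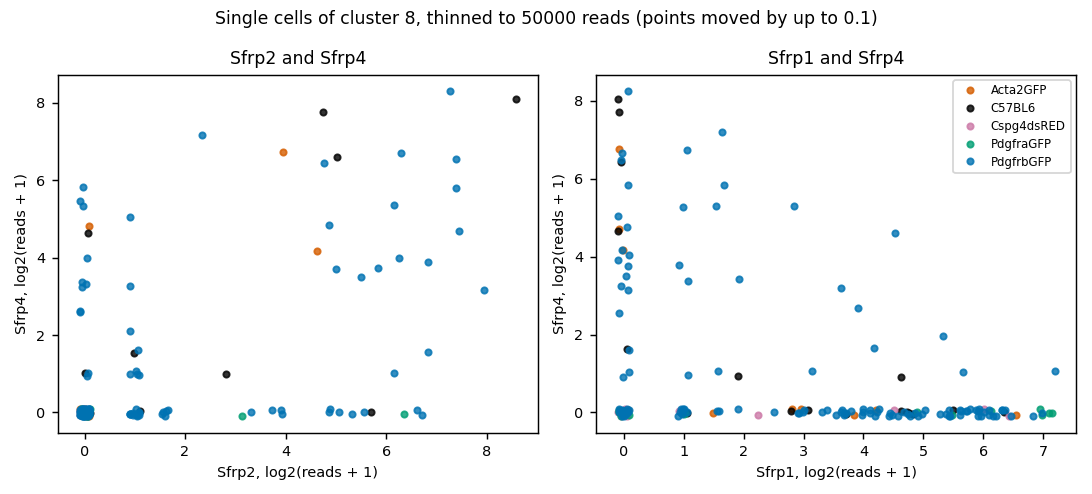
Cells of cluster 8 thinned to 50000 reads, as log2(reads + 1), with Sfrp4 against Sfrp2 on the left and against Sfrp1 on the right, 1 point per cell coloured by line and moved by up to 0.1 to show overlaps. On the left, 32 cells have reads of both genes. On the right, 21 cells have both and the others lie along the axes.

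In cluster 5, Dkk2 and Dkk3 had a correlation of 0.31 (Spearman 0.284) over 76 cells, of which 69 read both. Within lines it was 0.613 in 15 C57BL6, 0.142 in 22 PdgfraGFP and 0.16 in 36 PdgfrbGFP cells. Sfrp2 and Frzb had a correlation of -0.277 (Spearman -0.269), which was -0.529 within PdgfrbGFP and 0.2 within PdgfraGFP, so its sign turned between lines. In cluster 7, where 30 thinned cells read both Dkk2 and Sfrp1, that pair had a correlation of 0.274. The other pairs of Dkk2, Dkk3, Sfrp1, Sfrp2 and Frzb stayed within 0.25 of 0 over the 76 cells of cluster 5, although within the 22 PdgfraGFP cells Dkk2 and Frzb had a correlation of 0.417 and Dkk3 and Sfrp2 one of 0.378.

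Dkk2 reads outside cluster 5 moved with the plate layout. The libraries of a plate were dual-indexed and pooled, and how the indices were laid out over rows and columns is not given in the sources used here. At full depth, of 820 cells of other clusters with at least 1 cluster 5 cell in the same row or column, 29.1% had a Dkk2 read (interval 26.1% to 32.4%), against 4.8% of 583 cells with none (interval 3.21% to 6.87%). After thinning these shares were 10% (interval 8.04% to 12.3%) and 1.56% (interval 0.714% to 2.94%). Within plates the full-depth shares were 37.2% and 11.8% on plate 074s, 58.7% and 6.25% on plate 881s, 12.1% and 0.481% on plate 515s, 16.3% and 0% on plate 443s, 10.6% and 0% on plate 689s, and 4.08% and 2.38% on plate 352s. The direction was the same on all 6 plates at full depth, with 9 to 32 cells without such a neighbour on 3 of them. After thinning it held on 5 plates and turned on plate 352s, at 0% and 1.61%.

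Cells of cluster 10 had a Dkk2 read at full depth in 18.9% of 37 cells with such a neighbour and 1.14% of 88 without, and after thinning in 10.8% and 1.14%. All 7 of the former at full depth were on plate 881s. Low Dkk2 values outside cluster 5, such as the 26.2 in PdgfrbGFP cells of cluster 7, are to be read beside these shares, and the part of reads from neighbouring wells in them was not tested. In cluster 7 Dkk2 reached 10 reads in 4.82% of thinned cells (interval 2.43% to 8.47%) and its contrast of 2.13 on the log2 scale did not pass (adjusted p = 0.0865, edgeR).

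**Figure D5:**
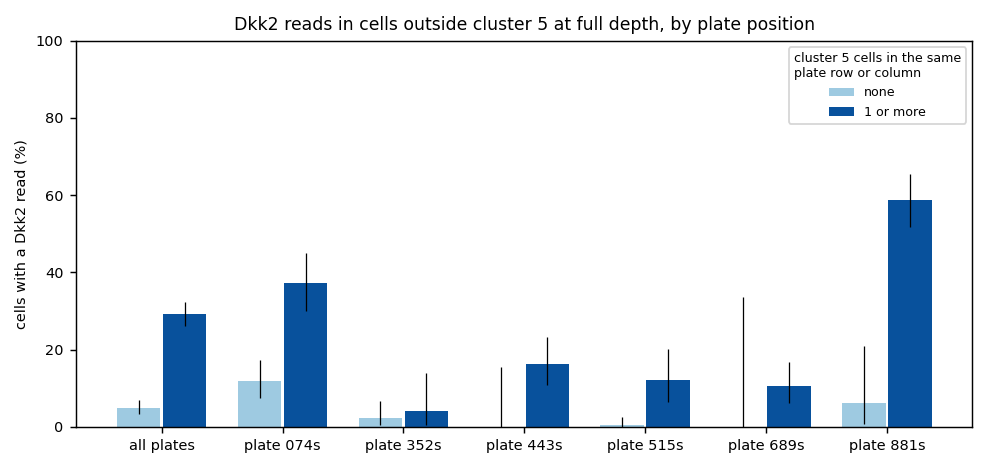
Share of cells outside cluster 5 with a Dkk2 read at full depth, in percent, over all plates and on each plate, for cells with no cluster 5 cell (light) and with 1 or more (dark) in the same plate row or column, with exact 95% intervals. The dark bar is higher on each of the 6 plates, and over all plates it is 29.1% against 4.8%.

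At full depth Sfrp2 was read in 56.3% of cells outside cluster 5 with a cluster 5 neighbour and 34.1% without, and on plate 443s in 53.6% and 59.1%. After thinning the shares were 28.9% and 18.5% over all plates and 29.4% and 18.2% on plate 443s, but 40.7% and 41.6% on plate 074s and 0% and 1.61% on plate 352s. Frzb, by its own highest cluster 6, had 45.9% and 12% over all plates and 29.7% and 56.2% on plate 443s at full depth, with 5.56% and 7.59% on plate 352s. After thinning Frzb had 24.4% and 8.33% over all plates and 20% and 25% on plate 443s.

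The remaining members, each by its own highest cluster, had pooled full-depth shares with and without such a neighbour of 70% and 42.1% for Sfrp1, 33.2% and 17.4% for Sfrp4, 95.1% and 88.7% for Dkk3, 1.08% and 2.86% for Dkk1 and 0.672% and 0% for Wif1. After thinning, Sfrp1 had 52% and 32.8% and Sfrp4 had 17.3% and 11.8%. Most cells without such a neighbour of Sfrp1 and Sfrp4 were on plate 352s (90 of them), where the full-depth shares with and without were turned, at 28.6% and 36.7% for Sfrp1 and 11.7% and 16.7% for Sfrp4. Sfrp1 was turned on plate 443s too, at 54% and 63.6%, so the pooled shares of these genes cannot be told apart from the mix of plates.

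The genes whose levels ran most like those of each member were sought over 43 groups of line and cluster and 13429 genes, by Pearson correlation of log2(level + 1). The groups share lines, plates and clusters, so these are descriptions. Dkk2 was nearest to Notumos (0.954), Notum (0.946) and Myadml2os (0.942). Notum encodes an enzyme that removes the lipid from Wnt ligands, and by its symbol Notumos is the opposite-strand transcript of Notum, so they may share reads. Sfrp2 was nearest to Gm26771 (0.985), the antisense gene that shares its exon bases, then to Chodl (0.777) and Lgr5 (0.772), an R-spondin receptor.

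Dkk3 was nearest to Mmp2 (0.889), Plxdc2 (0.885) and Adh1 (0.864), and Sfrp1 to Mrc2 (0.726), Boc (0.723) and Cdkn1c (0.691). Sfrp4 had 1810008B01Rik (0.706), Slit2 (0.672) and Greb1l (0.669), and Frzb had Stox2 (0.754), Sorcs2 (0.732) and Tead1 (0.723). Among the members themselves the highest value was 0.661, between Dkk2 and Sfrp2.

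Other genes of the Wnt pathway were read from a list of 75, comprising ligands, R-spondins, release factors, receptors, intracellular components, feedback targets and further antagonists. In cluster 10, 46 of them were tested and 8 called, 7 lower and 1 higher, beside 8.34% of all genes called in either direction and 6.06% lower. The 46 had a median log2 fold change of -1.17 against -0.81 for all genes. The ligands Wnt2b (-7.19), Wnt2 (-6.68) and Wnt9a (-6.03), the receptors Lgr5 (-5.77), Ptk7 (-5.43) and Fzd1 (-3.81), and the Dkk co-receptor Kremen1 (-4.26) were lower, on the log2 scale. Nkd1, an intracellular feedback inhibitor of Wnt signalling, was higher at 3.79 (SE 1.14, adjusted p = 0.0451, edgeR), with a level of 243.2 ± 184.9 in cluster 10.

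In cluster 5, 48 were tested and 2 called, beside 0.879% of all genes, both higher: Notum at 8.19 (SE 1.12, adjusted p = 0.00566) and Nkd1 at 4.12 on the log2 scale (SE 0.58, adjusted p = 0.00609, edgeR). Notum was at 176.1 ± 31.02 (n = 4) in cluster 5, 4.22 ± 4.25 in cluster 7 and 0.53 or less elsewhere, and 71.1% of cluster 5 cells had a read (interval 59.5% to 80.9%). In the contrast with the mean of the other fibroblast clusters, 12 of 53 tested were called in cluster 5, 10 higher and 2 lower, beside 4.11% of all genes. The higher ones included the feedback targets Tnfrsf19 (9.63), Nkd1 (5.36) and Axin2 (5.11), the antagonists Notum (10.33) and Sostdc1 (7.64), the receptor Lgr5 (8.18), the transcription factors Tcf7 (6.49) and Lef1 (5.34) and the ligand Wnt4 (5.22), all on the log2 scale. The lower ones were the ligand Wnt2b (-4.60) and the antagonist Igfbp4 (-1.30), the latter named after its value was seen. Across the fibroblast clusters together, 14 of 53 were called, beside 6.01% of all genes. A gene can pass the filter through the cluster where it is high, so these counts are descriptions and not support.

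Within cluster 5 cells, the reads of these genes did not closely follow those of the members. Dkk2 and Notum had a correlation of 0.15 (Spearman 0.263), with 50 of 76 cells reading both, and Dkk2 and Wnt2 had one of 0.138. Sfrp2 and the ligand Wnt2 had a correlation of 0.417 (Spearman 0.32) in cluster 5, with 62 cells reading both, and 0.0784 in cluster 7.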

How the data were processed

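The authors deposited raw read counts per gene and cell for 1479 cells, 46517 gene rows and 92 ERCC spike-in rows. Per their methods, reads of 50 bases were trimmed with trim galore, mapped to GRCm38 with TopHat2 and Bowtie, passed through a samtools step that removed what the methods call doublets, and counted with featureCounts. Annotation release and strand setting are not given in the sources used here. The deposited counts had been filtered on reads, genes, spike-in and mitochondrial share. Per the methods, cells with neither Pdgfra nor Pdgfrb expression, and cells with clear contamination such as endothelial or immune signatures, were removed as well. Totals ran from 50276 to 1446059 per cell with a median of 214893. Cluster, line and plate came from the labels, and all 1479 columns were mapped, leaving 0 without a sample.

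Symbols and coordinates came from GENCODE M21, which named 46005 identifiers. For each line, the counts of at least 3 cells of a class were added up and tested with edgeR 4.0.16 in R 4.3.3 (TMM, filterByExpr by class, quasi-likelihood test, line as block), with Benjamini-Hochberg adjustment over all genes tested. Calls needed an adjusted p under 0.05 and a log2 fold change of at least 2, or 1 for single clusters. The joint fit used clusters 1 to 9 and 11. Shares used cells thinned to 50000 reads, with full-depth values beside them for the plate layout, and Smart-seq2 reads are not independent molecules. Clusters neighbouring in the order of levels were said to differ when the mean log2(level + 1) difference over shared lines exceeded its SD. DESeq2 1.42.0, limma 3.58.1, Python 3.11.15, numpy 2.4.6, scipy 1.17.1, pandas 2.3.3 and matplotlib 3.10.9 were also used. On simulated counts, a true log2 change of 3 was recovered in 15% of changed genes for cluster 10 and 17% for cluster 5. In the cluster 5 contrast of the joint fit it was 27%. A change of 5 was recovered in 53%, 65% and 60%. A member that did not pass may therefore still differ. The 8 members and the pathway and marker lists were chosen with earlier results of these data known. The naming rule took all 8 members, with values where they passed the filter, and of the pathway genes the called ones, at most 10 per comparison by size. One alternative, the low-count filter computed from the design matrix, was added after seeing the data.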

Additional observations from a re-analysis of the deposited data

Results flagged for a closer look

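In groups of 4 or 5 lines, a line was picked out when its gap to the nearest other line exceeded Dixon's 95% critical value for the range of the group. Of 47 groups of a member and a cluster, 13 held such a line. For normally distributed values chance picks about 1 in 20, and its rate for skewed levels with zeros, as many are here, was not tested. Levels are reads per 500000.

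PdgfrbGFP cells were highest in 5 of these groups. Dkk2 was at 1.02 in cluster 1 (others up to 0.16), at 26.2 in cluster 7 (others up to 5.28) and at 6.07 in cluster 8 (others up to 0.29). In cluster 10, Dkk3 was at 15.3 (others 3.16 to 4.63) and Sfrp2 at 6.19 (others up to 0.87). PdgfrbGFP had the second highest median depth, 280414 reads, and was the only line on plates 074s and 881s, where the full-depth shares of cells with a Dkk2 read were highest. The part of either in these values was not tested.

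C57BL6 cells were highest for Sfrp1 in cluster 10, at 44.4 in 3 cells (others up to 4.13), for Frzb in cluster 2, at 133.8 in 13 cells (others up to 31.9), and for Sfrp4 in cluster 5, at 8.81 in 15 cells (others up to 0.82). PdgfraGFP cells were highest for Dkk3 in cluster 1, at 982 in 5 cells (others 565 to 623).

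Acta2GFP cells stood apart in 4 groups. They were lowest for Dkk3 in cluster 6, at 120 in 6 cells (others 228.9 to 259.9), for Frzb in cluster 3, at 21.5 in 37 cells (others 31.8 to 32.3), and for Sfrp2 in cluster 1, at 16.6 in 7 cells (others 29.5 to 29.6). On the plate they share with PdgfrbGFP, Frzb in cluster 3 was 21.5 in Acta2GFP and 21.9 in PdgfrbGFP cells. Wif1 was at 38.9 in 9 Acta2GFP cells of cluster 7, from 43 reads in 2 cells, while the other lines were at 0.01 or less.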

How the results depend on the processing

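Dkk3 and Sfrp4 in cluster 10, and Dkk2 and Sfrp2 in cluster 5 against the summed other fibroblast clusters, stayed called under every alternative run of these 2 comparisons. Of 8 members, 6 were called in cluster 10 and 2 to 5 when 1 of its 4 lines was left out, 3 with the median gene at 0, and 5 with the filter from the design matrix, which was added after seeing the data. For cluster 5 the 2 members became 4 with DESeq2, limma, sums per plate and line or thinned cells, and 2 to 3 when a line was left out. The joint test called 5 members, 3 with sums of at least 10 cells, and 3 to 5 when a line was left out. The 7 calls in single clusters were 13 with DESeq2 and 4 to 8 when a line was left out. They were 0 with an own fit for each cluster, a setting with another reference that could not hold the 4 calls of cluster 5. Frzb in cluster 5 turned from -0.39 to 0.30 with the median gene at 0, 0.057 with sums per plate and line, 0.73 without the line block, 0.53 with at least 10 cells and -1.38 to 0.53 when a line was left out, 0.53 being without Cspg4dsRED, the same fit as at least 10 cells, never past the threshold.

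Shares of all genes tested that were called moved further. In cluster 10, 8.34% became 20.9% with DESeq2, 5.07% without the low-count filter, 12.6% with sums per plate and line, and 3.09% to 6.29% when a line was left out. In cluster 5, 0.879% became 9.64% with DESeq2, 3.55% with limma, 4.52% with sums per plate and line, 2.43% without the block, 2.19% with thinned cells, 1.33% with at least 10 cells and 0.609% to 1.33% when a line was left out. Jointly, 6.01% became 9.06% with DESeq2, 10% with sums per plate and line, 12.2% without the block, 2.74% with at least 10 cells and 1.12% to 4.79% when a line was left out. Of the Wnt pathway list, the 8 calls in cluster 10 were 4 with the median gene at 0, 16 with DESeq2 and 2 to 7 when a line was left out. The 2 in cluster 5 were 13 with DESeq2, 6 with limma, 11 with sums per plate and line, 4 without the block, 7 with thinned cells, 4 with at least 10 cells and 2 to 4 when a line was left out. The 14 of the joint test were 22 with sums per plate and line and 5 to 15 when a line was left out. The cause of these shifts was not tested.

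By replicate number, no paired analysis was possible because those numbers only name cells. The reported fits pair the sums of a line through the line block, and the values without it are given above. Some sums held only 3 cells, and Dkk1 and Wif1 were too rarely read to compare.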
